A study of Rattus with 12 samples.

Results

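Isoform shares were followed for genes of rat chromosome 1, the chromosome that separates the strains of this study. In the deposited isoform table, 9488 isoforms of 5345 gene identifiers carried a chromosome 1 locus, of 76694 isoforms in all. An isoform was kept when the mean of its SS and SS.BN1 values was at least 1 FPKM (fragments per kilobase of transcript, scaled to the mapped fragments of the library) and its gene identifier had at least 2 such isoforms. This left 2827 isoforms of 878 gene identifiers, called genes from here on, of which 776 carried 1 gene name, 65 several and 37 none. A further 1293 isoforms past the minimum were alone in their gene. Of the rats, 6 were males of SS/JrHsdMcwi (SS), the salt-sensitive strain derived by Dahl. The other 6 were males of SS-Chr 1BN/Mcwi (SS.BN1), a consomic strain that carries Brown Norway chromosome 1 on the SS background. All 12 were 7 weeks old and ate a diet with 0.4% NaCl, and total RNA was sequenced from medullary thick ascending limbs picked by hand from digested outer medulla.

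Most mammalian genes yield several transcripts, through alternative promoters, splicing or 3′ ends. The isoforms of a gene can encode different proteins, or differ only outside the coding region and so in stability or translation. The share of each isoform in its gene is set apart from the level of the gene, so that a gene can hold its level while its isoforms exchange places. The thick ascending limb, whose salt uptake depends on the cotransporter Slc12a1, uses such choices: splice forms of Slc12a1 differ along the limb.

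The deposited tables hold 1 FPKM value per strain and isoform, so shares carry no error between animals and no replicate check. The values below were also those that chose the members, and they are given as a description without a test. Within a gene the shares add to 100%, and the isoforms are therefore not independent of each other. As a measure per gene, the absolute differences in share between SS and SS.BN1 were summed and divided by 2, which gives the exchanged share in percentage points (share moved on the plot axes). Isoforms carry identifiers of reference transcripts (1033, of the form ENSRNOT) or of transcripts assembled by the authors (1794, of the form MSTRG). A locus is given per gene and not per isoform, so the exons that separate isoforms are not known here. Different genes can carry the same locus, as Ppp1r12c and Eps8l1 do. The coordinates printed below are therefore those of a locus and need not belong to the named gene alone. Coordinates are as deposited, and their build is not settled.

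Libraries held 42.3 to 59.8 M reads, with means of 52.8 ± 3.69 M in SS and 52.0 ± 5.68 M in SS.BN1 (SD, n = 6 each; exact permutation test, two-sided, p = 0.784). Markers of the limb were abundant in both strains, with summed levels of 14509 FPKM in SS and 12672 FPKM in SS.BN1 over 7 genes, none of them called. Proximal tubule markers summed to 552 FPKM in SS and 236 FPKM in SS.BN1 over 10 genes. Of the 8 tested, 7 had in the authors' deposited table q under 0.05 with the higher value in SS, beside 3.32% of all tested genes, and no marker was at 0. The other marker sums were 137 FPKM in SS against 189 in SS.BN1 for principal cells, 78.6 against 98.3 for intercalated cells, 69.4 against 107 for endothelium, and 382 against 375 for leukocytes. Those of the thin limb were 469 FPKM in SS and 127 in SS.BN1, mostly from Cldn4 (426 FPKM in SS, 80.6 in SS.BN1). Of the other thin limb markers, Bst1 was higher in SS in value, and Slc14a2 and Akr1b1 were lower. The sums of fibroblasts and smooth muscle were 13.4 FPKM in SS and 13.3 in SS.BN1. The leukocyte sums came mostly from Cd74 (358 FPKM in SS, 349 in SS.BN1), with Cd68 higher in SS in value and Ptprc, C1qa and Cd3e lower. Among these other markers, Aqp2 and Tek were called with the lower value in SS and Cldn4 with the higher, beside 3.42% of all tested genes called in either direction. In bulk samples, fewer cells of a type and less RNA per cell cannot be told apart, and the part of cell makeup in the shares below was not tested.

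Isoform shares of chromosome 1 genes were close in SS and SS.BN1. The exchanged share had a median of 4.65 percentage points over the 878 genes, with quartiles of 2.21 and 8.56 points. It was under 1 point in 107 genes and under 5 points in 465. At least 10 points were exchanged in 165 genes (18.8%), where 17.3% of all genes chosen by the same rule on any chromosome did so. At least 25 points were exchanged in 16 genes (1.82%, against 1.29% of genes on all chromosomes). The most abundant isoform was a different one in SS than in SS.BN1 in 89 genes (10.1%, the same as the 10.1% of genes on all chromosomes).

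The other autosomes come from SS in both strains, and the 5441 genes there that met the same rule give the spread of shares without a designed difference in sequence. Their median exchanged share was 4.49 points, 923 of them (17.0%) exchanged at least 10 points, 66 (1.21%) at least 25 points, and 547 (10.1%) had another leading isoform. Chromosome by chromosome, 5 of the 19 other autosomes had a higher median than chromosome 1, 6 had a higher percentage of genes at 10 points or more, 2 had a higher percentage at 25 points or more, and 7 had a higher percentage with another leading isoform. Values at 10 points or more ran from 10.3% of genes on chromosome 19 to 23.2% on chromosome 18. With 1 value per strain, the difference between chromosome 1 and the other autosomes was not tested, and nothing is called particular to chromosome 1.

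**Figure D1:**
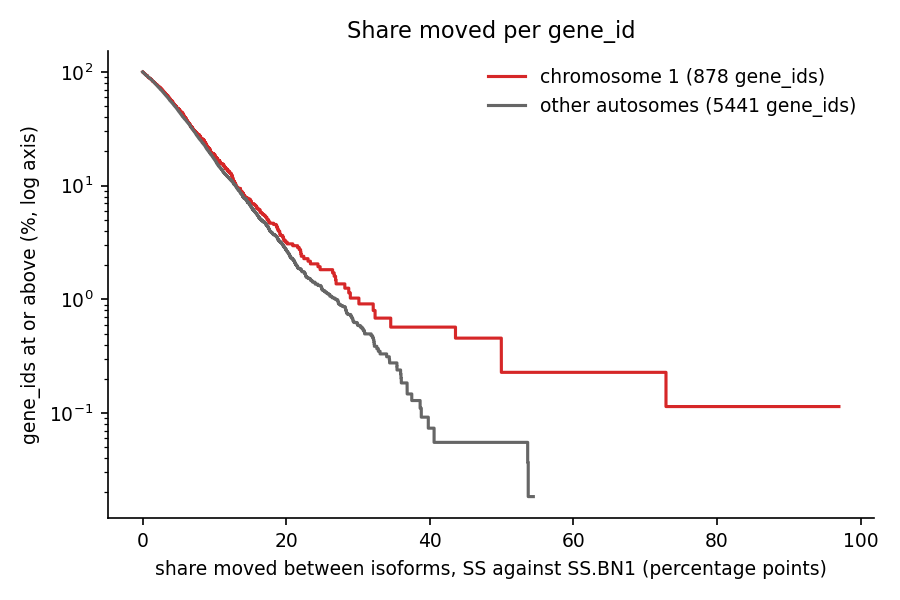
Percentage of genes (log axis) whose exchanged share, in percentage points on the horizontal axis, was at or above each value, for 878 genes of chromosome 1 (red) and 5441 genes of the other autosomes (grey). At 10 points the curves stand at 18.8% for chromosome 1 and 17.0% for the other autosomes, and 2 chromosome 1 genes (72.9 and 97.0 points) lie beyond the highest value elsewhere, 54.4 points.

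**Figure D2:**
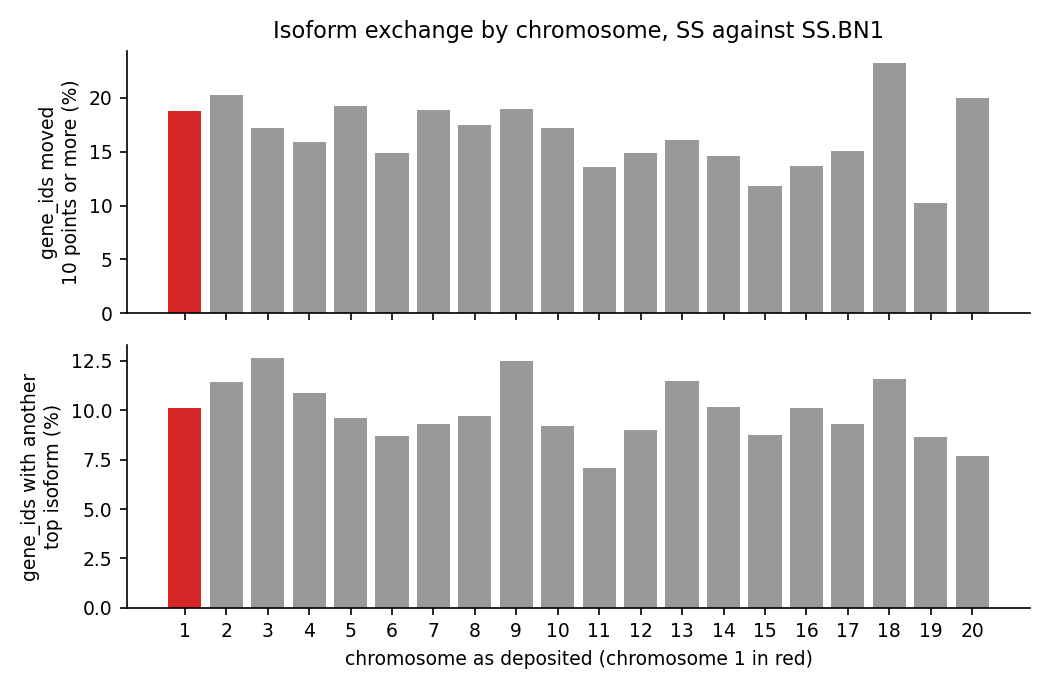
Percentage of genes that exchanged at least 10 percentage points between isoforms (upper bars) and that had another leading isoform in SS than in SS.BN1 (lower bars), by chromosome as deposited. Chromosome 1 (red, 18.8% and 10.1%) lies within the range of the other autosomes.

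How much was exchanged went with how abundant a gene was and with how many isoforms it had. Genes with a summed level of 2 to 5 FPKM had a median exchanged share of 6.97 points on chromosome 1 and 6.48 points on the other autosomes. Genes of 50 FPKM and over had 2.66 points on both. The fall was not steady on chromosome 1, with 4.97 points at 5 to 10 FPKM and 5.76 at 10 to 20 FPKM. The other autosomes had 5.39 and 4.83 there. Genes with 2 kept isoforms had medians of 3.07 points on chromosome 1 and 2.89 on the other autosomes, and those with 5 or more had 7.50 and 7.15. Exchanges of 25 points or more were also rarer at high levels, at 6.19% of chromosome 1 genes of 2 to 5 FPKM and 0.787% of those of 50 FPKM and over. On chromosome 1 they did not rise with the number of isoforms. They made up 2.68% of chromosome 1 genes with 2 isoforms and 0% of those with 5 or more, against 1.01% and 1.29% on the other autosomes. Across the 878 genes, Spearman's rho of the exchanged share was 0.37 with the number of isoforms, -0.25 with the summed level and 0.15 with the absolute log2 ratio of the summed level; these points share libraries and the same estimation of isoforms. In RefSeq's table of the GRCr8 assembly, 721 of 776 genes with a single name were matched, 720 of them protein coding, with a median of 4 annotated transcripts. The exchanged share had a rho of 0.22 with that number over the matched genes. Of the genes described below, Selenos, Fosl1, Frat2, Plaur, Cnksr3, Dusp5, Ppp1r15a and Idh2 had 1 annotated transcript each in RefSeq. Il4r had 4, Lilrb4 11 and Plekha1 31.

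**Figure D3:**
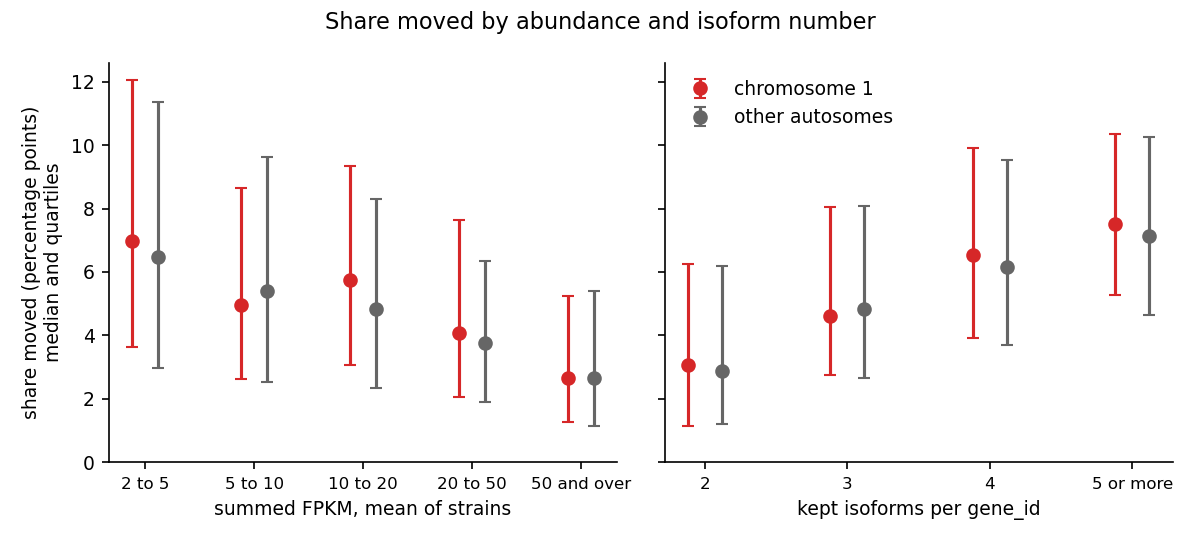
Median exchanged share with quartiles (bars), in percentage points, by summed FPKM averaged over the strains (left) and by number of kept isoforms (right), for chromosome 1 (red) and the other autosomes (grey). On chromosome 1 the median was 6.97 points at 2 to 5 FPKM and 2.66 points at 50 FPKM and over, and it was 3.07 points with 2 isoforms and 7.50 with 5 or more.

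Along chromosome 1, windows of 50 Mb held 86 to 212 genes each, and the median exchanged share lay between 3.91 points (150 to 200 Mb) and 5.02 points (0 to 50 Mb). Genes at 10 points or more made up 15.2% (50 to 100 Mb) to 22.1% (0 to 50 Mb) of a window. No window held all of the large exchanges: the 16 genes at 25 points or more were spread over 5 of the 6 windows, with 0 in the first.

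Some genes had close summed levels in SS and SS.BN1 while their isoform shares differed. The level of 630 chromosome 1 genes differed by at most 0.2 on the log2 scale between SS and SS.BN1, and 100 of these (15.9%) exchanged at least 10 points, against 560 of 4084 (13.7%) on the other autosomes. Selenos, a selenoprotein of the endoplasmic reticulum that takes part in the disposal of misfolded proteins (chromosome 1, 126979575 to 126989344), had the largest exchange among singly named genes of at least 10 FPKM in each strain. It had 47.7 FPKM in SS and 47.8 FPKM in SS.BN1. Reference transcript ENSRNOT00000016916 had 39.2 FPKM in SS and 18.5 FPKM in SS.BN1, and the other, ENSRNOT00000081746, had 8.51 FPKM in SS and 29.4 FPKM in SS.BN1. The first isoform thus held 82.2% of the gene in SS and 38.6% in SS.BN1, an exchange of 43.6 points. Neither isoform was called in the authors' deposited table (p = 0.126 for each, q = 0.999), and RefSeq annotates 1 transcript for Selenos.

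Tmem132a, a transmembrane protein (chromosome 1, 226897625 to 226924244), had 30.6 FPKM in SS and 28.8 FPKM in SS.BN1. Its reference transcript had 17.5 FPKM in SS and 22.9 FPKM in SS.BN1, while an assembled isoform had 13.1 FPKM in SS and 5.86 FPKM in SS.BN1. The assembled isoform made up 42.8% of the gene in SS and 20.4% in SS.BN1, and its unadjusted p was 0.0368 with q = 0.999 in the authors' deposited table. Plekha1, which binds a phosphoinositide lipid at the plasma membrane, summed to 28.7 FPKM in SS and 28.6 FPKM in SS.BN1. Its most abundant isoform held 33.6% in SS and 49.2% in SS.BN1, and its next one 32.9% in SS and 19.9% in SS.BN1, among 6 kept isoforms. Ssh3, of the slingshot family of cofilin phosphatases, spread 15.6 FPKM in SS and 15.0 FPKM in SS.BN1 over 7 isoforms and exchanged 18.9 points. Its reference transcript held 9.43% in SS and 22.4% in SS.BN1. In Tmem132a, Plekha1 and Ssh3 the leading isoform was the same in both strains, and no kept isoform was called in the authors' deposited table.

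Zfp51 and LOC361646 showed exchanges at lower levels. Zfp51, a zinc finger gene, had its reference transcript at 62.8% of 3.58 FPKM in SS and 40.8% of 3.31 FPKM in SS.BN1. LOC361646 had its leading SS isoform at 50.6% of 4.44 FPKM in SS and 27.5% of 4.37 FPKM in SS.BN1. In both genes the leading isoform differed between the strains, and no isoform had an unadjusted p under 0.05 in the authors' deposited table. Lilrb4, an inhibitory immunoglobulin-like receptor of myeloid cells (chromosome 1, 73393850 to 73399579), had the largest exchange of any gene with a single name. Its kept isoforms summed to 4.80 FPKM in SS and 4.24 FPKM in SS.BN1, while the authors' deposited gene table gives 7.70 FPKM in SS and 4.99 FPKM in SS.BN1. An assembled isoform had 3.50 FPKM in SS and 5.13e-05 FPKM in SS.BN1, and the other had 1.30 FPKM in SS and 4.24 FPKM in SS.BN1. The exchange was 72.9 points. It was the only chromosome 1 gene with unadjusted p-values under 0.05 in opposite directions in the authors' deposited table (p = 0.0408 and 0.0382, q = 0.999 for both), and it was also the only one among the genes chosen by the same rule on any chromosome (0.0154%). Reads may be divided between similar members of this family, and the kept isoforms held 62.3% of the gene's FPKM in SS and 84.8% in SS.BN1, so the value is uncertain.

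**Figure D4:**
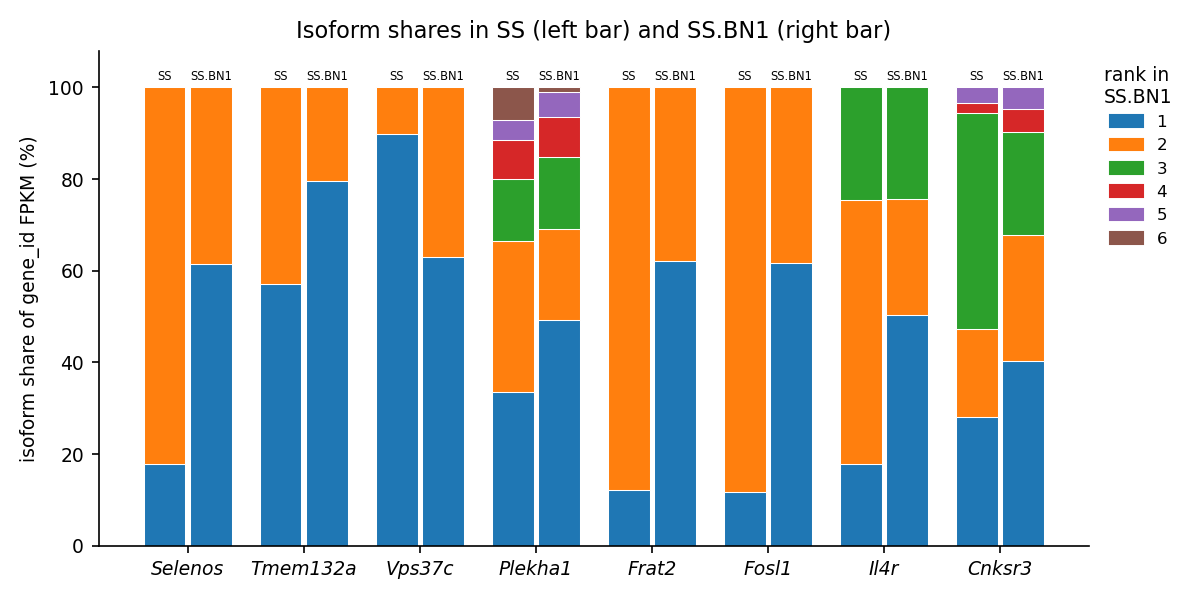
Isoform shares in percent of the summed FPKM of kept isoforms for 8 genes, with SS as the left bar and SS.BN1 as the right bar of each pair and colours for the rank of an isoform in SS.BN1. In Selenos the isoform ranked first in SS.BN1 held 17.8% in SS and 61.4% in SS.BN1, and in Frat2 12.2% in SS and 62.1% in SS.BN1.

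Isoform shares also differed in genes with a higher level in SS. Of the 878 genes, 37 were called as genes in the authors' deposited table (3.42% of all tested genes were called), 35 of them with the higher value in SS (3.32% of all tested genes). The called genes had a median exchanged share of 11.4 points, and 20 of 37 (54.1%) exchanged at least 10 points, against 145 of the other 841 genes (17.2%), whose median was 4.51 points. On the other autosomes the medians were 7.43 points for 195 called genes and 4.40 points for 5246 others. There, 36.9% of the called genes and 16.2% of the others exchanged at least 10 points. Both measures come from the same FPKM values, so they are not independent. The minimum is on the mean of the strains, so an isoform can be kept through its SS value alone. The contrast between called and other genes is therefore only a description. The values per gene below show that many of the SS.BN1 shares rest on isoforms near or under 1 FPKM.

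Fosl1, a Fos-family partner of Jun proteins in AP-1 (chromosome 1, 220826560 to 220838079), had 28.6 FPKM in SS and 2.16 FPKM in SS.BN1. Its reference transcript, at 25.2 FPKM in SS and 0.829 FPKM in SS.BN1, made up 88.3% of the gene in SS and 38.4% in SS.BN1. The assembled isoform had 3.34 FPKM in SS and 1.33 FPKM in SS.BN1. Each isoform was thus higher in SS in value, with an exchange of 49.96 points. Neither isoform was called (q = 0.999 and 0.408), although the gene was (q = 0.00266), in the authors' deposited table.

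Plaur, the urokinase receptor (chromosome 1, 81328183 to 81344708), summed to 25.3 FPKM in SS and 1.25 FPKM in SS.BN1. A reference transcript had 13.2 FPKM in SS and 0.874 FPKM in SS.BN1 and was called (the authors' deposited table gives q = 0.0319). The other had 7.36 FPKM in SS and 0.0109 FPKM in SS.BN1, or 29.0% of the gene in SS and 0.877% in SS.BN1. The called transcript thus had the smaller share in SS, 52.2% against 70.2% in SS.BN1. Il4r, the receptor chain for interleukin-4 (chromosome 1, 196942364 to 196967220), had 12.5 FPKM in SS and 3.96 FPKM in SS.BN1 over 3 assembled isoforms. Its leading SS isoform had 7.23 FPKM in SS and 1.01 FPKM in SS.BN1, while the one that led in SS.BN1 was nearly level, at 2.25 FPKM in SS and 1.99 FPKM in SS.BN1. The share of the isoform that led in SS was 57.6% in SS and 25.4% in SS.BN1.

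Cnksr3, a scaffold protein induced by aldosterone that helps regulate the epithelial sodium channel (chromosome 1, 43789791 to 43884267), summed to 88.2 FPKM in SS and 13.1 FPKM in SS.BN1 over 5 isoforms, all with the higher value in SS. An assembled isoform led in SS with 41.6 FPKM, against 2.94 FPKM in SS.BN1, and had 47.2% of the gene in SS and 22.5% in SS.BN1 (the authors' deposited table gives q = 0.569). Reference transcript ENSRNOT00000024418 led in SS.BN1. It had 24.7 FPKM in SS and 5.28 FPKM in SS.BN1, was called in the authors' deposited table (q = 0.0319), and held 28.0% in SS and 40.4% in SS.BN1.

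Frat2, which binds glycogen synthase kinase 3 and promotes Wnt signalling (chromosome 1, 261087081 to 261090437), summed to 7.89 FPKM in SS and 2.23 FPKM in SS.BN1. Its assembled isoform had 6.93 FPKM in SS and 0.845 FPKM in SS.BN1 and was called (the authors' deposited table gives q = 0.00718). The reference transcript was not higher in SS, at 0.960 FPKM in SS and 1.39 FPKM in SS.BN1, and was not tested by the authors. The exchange was 49.97 points, and the gene itself was not called (the authors' deposited table gives q = 0.310). Akap12, a scaffold for protein kinases, had a called transcript at 8.81 FPKM in SS and 2.44 FPKM in SS.BN1 and a second at 2.097 FPKM in SS and 0.0537 FPKM in SS.BN1. The second one held 19.2% of the gene in SS and 2.15% in SS.BN1.

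Some genes called with the higher value in SS exchanged less than 10 points. Tnfaip3, an inhibitor of NF-kB signalling, had 26.0 FPKM in SS and 7.55 FPKM in SS.BN1 and exchanged 0.446 points, with its main isoform at 91.2% in SS and 90.8% in SS.BN1. Fbxo30, an F-box protein, had 44.5 FPKM in SS and 12.7 FPKM in SS.BN1, with its reference transcript at 77.2% in SS and 74.5% in SS.BN1. The poliovirus receptor gene PVR had both of its isoforms called, at 46.0 FPKM in SS against 6.39 FPKM in SS.BN1 and 6.87 FPKM in SS against 1.30 FPKM in SS.BN1, and exchanged 3.94 points (the authors' deposited table gives q = 0.00718 and 0.0132). Dusp5, a phosphatase of ERK kinases, likewise had its reference transcript (30.3 FPKM in SS, 4.43 FPKM in SS.BN1) and an assembled isoform (5.30 FPKM in SS, 1.17 FPKM in SS.BN1) called in the authors' deposited table. It exchanged 8.28 points, above the median of 4.65 over all genes. Ppp1r15a, which guides a phosphatase to the translation factor eIF2α, had 122 FPKM in SS and 50.7 FPKM in SS.BN1. Its reference transcript, 106 FPKM in SS and 38.7 FPKM in SS.BN1, accounted for most of that difference, and it held 86.3% of the gene in SS and 76.4% in SS.BN1, an exchange of 9.84 points. The lowest of its 4 minor isoforms had 1.43 FPKM in SS and 1.86 FPKM in SS.BN1. Every kept isoform had the higher value in SS in 29 of the 37 called genes. The level of a gene sums its isoforms, and 35 of the 37 were higher in SS, so this count follows in part from the call. The same count was not made for other genes.

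**Figure D5:**
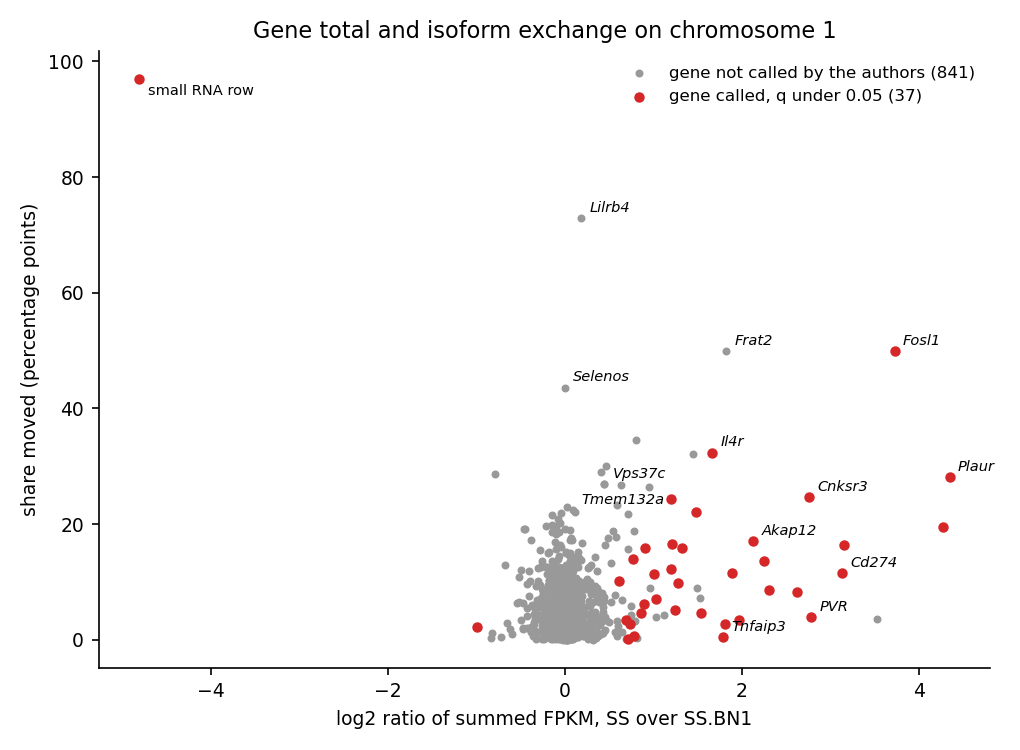
Exchanged share in percentage points against the log2 ratio of summed FPKM, SS over SS.BN1, for 878 genes of chromosome 1, with the 37 genes called by the authors in red. Selenos lies at 43.6 points with a level total, whereas Tnfaip3 and PVR lie at the right with 0.446 and 3.94 points.

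Most of the genes with 25 points or more had a low level. Of the 16 genes, 10 had a summed level under 10 FPKM, 11 had just 2 kept isoforms, and 11 had another leading isoform in SS than in SS.BN1. A row that joins 6 Rfam small RNA names (chromosome 1, 224921135 to 224924588) had the largest value, 97.0 points. A transcript of it was listed at 0 FPKM in SS and 1518 FPKM in SS.BN1 and was not tested by the authors. The row as a gene had 55.8 FPKM in SS and 1565 FPKM in SS.BN1 and was called (the authors' deposited table gives q = 0.00266). The length scaling of FPKM is unreliable for RNAs of this size. Vps37c, a subunit of the ESCRT-I sorting complex, had its reference transcript at 14.5 FPKM in SS and 7.48 FPKM in SS.BN1, and an assembled isoform at 1.64 FPKM in SS and 4.40 FPKM in SS.BN1. The reference transcript held 89.8% in SS and 62.9% in SS.BN1 (the authors' deposited table gives p = 0.0630, q = 0.999).

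Tgfb1i1, a focal adhesion adaptor, exchanged 26.9 points with a sum of 5.04 FPKM in SS and 3.72 FPKM in SS.BN1. Mybpc2, a myosin-binding protein of fast muscle, exchanged 26.7 points with a sum of 3.46 FPKM in SS and 2.23 FPKM in SS.BN1. Tmem159, which the naming rule left out and which was added after its value was seen, exchanged 26.5 points. The joined row of Arhgef17 and Mir3102 reached 30.1 points through a transcript listed with 7.03 FPKM in SS and with 0 in SS.BN1, which was not tested by the authors. An unnamed gene (chromosome 1, 174059801 to 174119815) exchanged 34.6 points, with an isoform at 3.19 FPKM in SS and 0.938 FPKM in SS.BN1 that was called (the authors' deposited table gives q = 0.0181). A further 3 rows with contig or clone names, AABR07006283.1, AC120237.2 and AABR07006258.2, exchanged 32.1, 28.9 and 28.7 points at summed levels between 1.29 and 10.4 FPKM.

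An exchange was also seen where the summed value was lower in SS. Bbip1, a subunit of the BBSome of cilia, had its reference transcript at 5.45 FPKM in SS and 11.7 FPKM in SS.BN1, while the assembled isoform that led in SS was level at 7.22 FPKM in SS and 7.27 FPKM in SS.BN1. The gene exchanged 19.1 points, with a sum of 16.9 FPKM in SS and of 23.1 FPKM in SS.BN1, and was not called (q = 1 in the authors' deposited table).

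The 5 most abundant genes with a single name exchanged between 0.164 and 3.92 points. Aldoa, the glycolytic aldolase, had 978 FPKM in SS and 931 FPKM in SS.BN1, with its main transcript at 86.4% in SS and 84.8% in SS.BN1. Spint2, an inhibitor of serine proteases at the cell surface, had its main transcript at 89.4% in SS and 90.4% in SS.BN1. Idh2, the mitochondrial isocitrate dehydrogenase, exchanged 1.89 points and Cox6b1, a subunit of cytochrome c oxidase, 0.164 points. In Mpc1, a subunit of the mitochondrial pyruvate carrier, a minor assembled isoform had 12.9 FPKM in SS and 47.5 FPKM in SS.BN1, or 1.47% of the gene in SS and 5.39% in SS.BN1 (the authors' deposited table gives p = 0.456, q = 0.999). The steadiest genes with at least 3 isoforms and 20 FPKM were Myof (0.271 points), Rassf7 (0.586), Ginm1 (0.662) and the kinase Akt2 (0.665). Akt2 divided itself almost evenly between a reference transcript, 46.7% in SS and 46.4% in SS.BN1, and an assembled one, 44.3% in SS and 43.9% in SS.BN1.

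Genes that act on isoform choice did not pass the authors' test at the gene level. Of 68 tested splicing regulators and spliceosome genes on any chromosome, 0 were called in the authors' deposited table, whose columns are named as by Cuffdiff, beside 3.42% of all tested genes, and 0 had an unadjusted p under 0.05. Their median log2 ratio of SS over SS.BN1 was 0.02, beside 0.00 for all 13253 tested genes. None of 14 genes of nonsense-mediated decay (median 0.05) and none of 19 cleavage and polyadenylation genes (median -0.02) was called there, beside the same 3.42%, or had an unadjusted p under 0.05. Lists of these sizes would hold few called genes at 3.42%, so the absence of calls says little about them. The share of all tested genes with an unadjusted p under 0.05 was not computed, so those counts have no comparison. Among chromosome 1 members, Hnrnpl, a splicing repressor, spread 148 FPKM in SS and 133 FPKM in SS.BN1 over 8 isoforms and exchanged 6.68 points. Cpsf7, a subunit of a cleavage factor, had 12 kept isoforms and exchanged 10.4 points. The 7 splicing members had a median of 3.24 points and none reached 10.

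Transport genes of the limb and their regulators had 6 members, with a median exchanged share of 5.42 points and none at 10 points. Sgk1, a kinase of sodium transport regulated by corticosteroids, had its main transcript at 41.8 FPKM in SS and 30.2 FPKM in SS.BN1. This was 84.0% of the gene in SS and 75.4% in SS.BN1 (the authors' deposited table gives p = 0.0626, q = 0.999). Fxyd1 and Fxyd5, which regulate the sodium pump, exchanged 8.57 and 6.59 points, and Fxyd1 did so at 2.98 FPKM in SS and 3.09 FPKM in SS.BN1. The serine protease hepsin (Hpn) exchanged 4.25 points, the sodium channel subunit Scnn1g 1.83 and the magnesium-handling gene Cnnm2 0.300. Of 41 tested genes of the list on any chromosome, 1 was called with the higher and 1 with the lower value in SS by the authors' deposited table, beside 3.42% of all tested genes called in either direction.

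Blood pressure candidates of chromosome 1 had 16 members with a median of 3.69 points, and 2 exchanged at least 10 points. Furin, a proprotein convertase, had 36.1 FPKM in SS and 37.8 FPKM in SS.BN1 and exchanged 11.6 points, with its leading isoform at 67.5% in SS and 55.8% in SS.BN1 (the authors' deposited table gives p = 0.568, q = 0.999). The joined row of Acat2 and Acat2l1 exchanged 10.6 points. Add3, an adducin of the membrane skeleton, exchanged 8.81 points over 8 isoforms. Stim1, the calcium sensor of the endoplasmic reticulum, exchanged 6.97 points and the transcription factor Mef2a 6.61. Gucy2g, a receptor guanylate cyclase, differed in level (23.3 FPKM in SS, 46.5 FPKM in SS.BN1) and exchanged 2.14 points. In the list as a whole, 4 of 33 tested genes were called with the higher and 1 with the lower value in SS by the authors' deposited table. Of all tested genes on any chromosome, 3.32% were called with the higher value and 3.42% in either direction. The list was chosen with earlier results of these data known, so these counts cannot show whether candidates were called more often.

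Few isoforms passed the authors' test. Of 2470 tested member isoforms, 18 (0.729%) had q under 0.05 in the authors' deposited table, beside 1.05% of all 23688 tested isoforms, and all 18 were higher in SS (1.04% of all tested isoforms were). They belonged to 16 genes, and 10 had a larger and 8 a smaller share of their gene in SS than in SS.BN1. An unadjusted p under 0.05 was reached by 71 isoforms (2.87%, beside 3.85% of all tested isoforms). Of these, 67 were higher in SS (3.6% of all tested isoforms were) and 4 lower in SS (0.258% were). Fam189a2 and Cd274, the ligand of the receptor PD-1, had called isoforms that lost share in SS. In Cd274 the called assembled isoform had 14.8 FPKM in SS and 1.94 FPKM in SS.BN1 and held 75.9% in SS and 87.4% in SS.BN1. In Fam189a2 the called isoform had 1.83 FPKM in SS and 0.245 FPKM in SS.BN1, with 22.1% in SS and 26.2% in SS.BN1. A joined row that holds Ipcef1 had its called isoform at 51.2% in SS and 62.7% in SS.BN1. The authors' test compares the level of an isoform.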

How the data were processed

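Libraries were made per animal with a stranded total-RNA kit and sequenced in pairs, per the labels' protocols. Cufflinks 2.2.1, TopHat2 2.1.1, StringTie, cutadapt and FastQC are listed in the submitters' processing notes, with the build rn5 and with no role or order. The deposited FPKM values are the authors', 1 per strain and isoform, and the step that turned 6 libraries into that value is not described in the labels. The deposited p-values and q-values are the authors', in columns named as by Cuffdiff, per the file headers. The read counts per library and mate are those deposited.

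Isoform FPKM is estimated from reads that several isoforms share, so errors in the isoforms of a gene are linked, and values near 0 can be failed estimates. The rn5 assembly is of the Brown Norway strain; on chromosome 1, strain and fit to that sequence cannot be told apart. The build is not settled, since 7362 isoform rows carry AABR07 contig names of a later assembly. Coordinates are as deposited, with 1 added to the start (26 of 31 mitochondrial genes begin where another ends).

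Shares were computed without a pseudocount. Limma was planned if values per library were present, which was not the case in the tables used. Members and lists were chosen with earlier results of these data known. Named genes were the 12 largest exchanges, the 8 largest at 10 FPKM in each strain, up to 12 with another leading isoform, the 5 most abundant, 10 list members, the 4 steadiest, up to 12 called isoforms, and joined or unnamed rows among the 12 largest; other names were added after values were seen. At the 1 FPKM minimum, an isoform of Setd1a (0.904 FPKM in SS, 1.10 in SS.BN1) and one of Igf1r (1.12 in SS, 0.886 in SS.BN1) lay just inside, and one of Plekha7 (1.13 in SS, 0.865 in SS.BN1) and one of a joined clone row (1.27 in SS, 0.721 in SS.BN1) just outside. Alternatives were other minima, denominators, statuses, names, a pseudocount and reference transcripts alone. On simulated shares for 878 genes, made without noise, all 200 changes were recovered, which checks only the computation of the shares. Tables were handled in pandas 2.3.3 and NumPy 2.4.6 under Python 3.11.15, the permutation test was SciPy 1.17.1, and plots were drawn with matplotlib 3.10.9. Some named genes are not reported here.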

Additional observations from a re-analysis of the deposited data

How the results depend on the processing

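The figures for chromosome 1 moved with the minimum level. The median exchanged share, 4.65 points, was 3.18 at a minimum of 5 FPKM, 5.65 at 0.1 FPKM, 4.25 with 1 FPKM required in both strains, 4.22 with 0.5 FPKM added, and 3.48 with reference transcripts alone. Genes at 10 points or more, 165 in the report, numbered 33 at 5 FPKM, 306 at 0.1 FPKM and 30 with reference transcripts alone. They numbered 116 with 1 FPKM in both strains. Over the same 878 genes they numbered 123 with 0.5 FPKM added and 140 with all isoforms of a gene in the denominator. Genes at 25 points or more, 16 in the report, numbered 3 at 5 FPKM, 50 at 0.1 FPKM, 6 with 1 FPKM in both strains, 10 with tested isoforms alone and 5 with reference transcripts alone. Genes with another leading isoform, 89 in the report, numbered 31 at 5 FPKM and 17 with reference transcripts alone. Settings other than the added 0.5 FPKM and the denominator keep other numbers of genes, which by construction changes the counts. They kept 285 genes at 5 FPKM, 1148 at 0.1 FPKM and 213 with reference transcripts. As percentages, genes at 10 points were 11.6% on chromosome 1 and 7.82% on the other autosomes at 5 FPKM, 26.7% and 25.8% at 0.1 FPKM, and 14.1% and 16.2% with reference transcripts. Called member isoforms, 18 in the report, numbered 10 at q under 0.01 and 11 with a mean of at least 5 FPKM. The difference in reads between SS and SS.BN1 was 0.769 M by means and -0.732 M by medians (exact permutation test, p = 0.727). No paired analysis was possible because the tables hold 1 value per strain and the labels give no replicate numbers.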

Other observations

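Isoforms with a reference identifier took a slightly larger part of their genes in SS than in SS.BN1, on chromosome 1 and elsewhere. Of 690 chromosome 1 genes that held both reference and assembled isoforms, the reference share was higher in SS in 436 (63.2%), with medians of 59.4% in SS and 58.1% in SS.BN1. On the other autosomes it was higher in SS in 2635 of 4284 genes (61.5%), with chromosomes ranging from 51.4% (chromosome 11) to 67.9% (chromosome 16). Among genes whose summed level differed by at most 0.2 on the log2 scale, it was higher in SS in 326 of 511 on chromosome 1 (63.8%) and in 2080 of 3288 on the other autosomes (63.3%). The genes share libraries and are not independent, no test was made, and the difference per gene was small, with a median of 1.24 points on chromosome 1 and 1.02 points elsewhere.

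The leading isoform of a gene was not more dominant in either strain. On chromosome 1 its median share was 63.9% in SS and 63.5% in SS.BN1, and it was higher in SS in 450 genes and lower in SS in 428. Values under 0.01 FPKM were rare among member isoforms, 2 in SS and 5 in SS.BN1.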
